A study of Mus musculus with 4 samples.

Results

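The genes described here are 34 mouse genes of fatty acid uptake, activation, droplet storage, oxidation, synthesis and their regulation, chosen by name and read from the deposited table through their NCBI gene identifiers. All 34 were among the 27179 identifiers of that table. They were measured by bulk RNA sequencing of group 2 innate lymphoid cells (ILC2s), tissue lymphocytes that release type 2 cytokines, sorted from colons of C57BL/6J mice. The first group ate a control diet and the other a high-fiber diet, with 2 mice per diet and 1 library per mouse. Values given as a row of 4 follow the order control mouse 1, control mouse 2, fiber mouse 1, fiber mouse 2. The labels name no genetic change in either group, and give neither the sort gates, the kind of fiber, the time on the diet nor the age of the mice. The question the design addresses is how transcripts of these cells differ between the diets.

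Fatty acids enter a cell through surface carriers or after lipases free them from lipoproteins, and acyl-CoA synthetases then couple them to coenzyme A. The activated chains can be stored as triglyceride in lipid droplets, where perilipins coat the surface and lipases later release the chains, or they pass through the carnitine shuttle into mitochondria for beta-oxidation. Cells also build fatty acids from citrate, a pathway under the transcription factor SREBP-1. ILC2s are known to take up external fatty acids and to route them through droplets when they are activated.

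Libraries held 20253987 to 30406730 counts, and 11841 genes entered the test. All 10 ILC2 markers examined, among them Gata3, Il1rl1 and Klrg1, had counts in each of the 4 libraries. Of 7 colon epithelial markers 6 had no count in any library. Epcam was the exception, and the list summed to 25.1 to 36.9 CPM (counts scaled to a common library size, here with TMM factors). Of 6 endothelial genes Kdr, Emcn and Gpihbp1 had no count, while Pecam1 held 853 to 1813 counts and the list summed to 42.0 to 62.8 CPM. The 9 macrophage markers are given beside Cd36. No count was found for the adipocyte genes Adipoq, Cidec and Lep. Adipocyte markers summed to at most 0.312 CPM in a library. B and plasma cell genes summed to 132 and 11.6 CPM in the control mice and to 302 and 1169 CPM in the fiber mice. Fiber mouse 2 held the lowest of the 4 values for 31.8% of all genes tested, against 21.5% to 23.9% for each other library, and the highest for 28.3%, against 22.5% to 24.8%. Values without it are given beside several of the genes it moved.

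Per length, the 2 enzymes that complete triglyceride, Dgat1 and Dgat2, had the highest means of the 28 tested genes over all 4 libraries. In the controls alone the mean of Dgat2 was below those of Acadvl and Plin2. Both Dgat genes were higher in each fiber mouse than in either control library. The lipogenic genes Fasn and Scd2, their regulator Srebf1, the synthetases Acsl1 and Acsl3 and the droplet coat gene Plin3 were lower in each fiber mouse than in either control library. The gap was narrow for Plin3 (24.9 CPM in control mouse 2, 24.3 in fiber mouse 1) and Fasn (6.53 and 5.99 CPM). Fiber mouse 2 held only 1 count for Fasn, 3 for Scd2 and 12 for Acsl1. For the other tested synthesis genes, Acly, Acaca and Elovl6, the diets overlapped. Of the 5 uptake genes among the 34, Lpl and Vldlr had no counts and Fabp4 and Fabp5 had at most 24 in a library. None of the 28 reached an adjusted p under 0.05 in edgeR's quasi-likelihood test over all 11841 genes (Benjamini-Hochberg), where 4 genes passed upward (0.0338%) and 0 downward (0%). DESeq2, which called 1.23% of its genes higher and 0.613% lower, and limma-voom, which called 0 genes of the table, called 0 of the 28 as well. At an unadjusted p under 0.05, Dgat1 and Dgat2 were higher and Acsl1 was lower, and the same rule held for 4.7% of all genes upward and 4.1% downward. Diets did not overlap for 7 of the 28 genes upward and for 6 downward, while the shares over all genes were 18.5% and 19.6%. Fabp5, among the 7 upward, entered the test only through its counts in the fiber mice. Of the 28, 15 had a negative log2 fold change (high-fiber minus control), as did 51.2% of all genes, and 13 a positive one, as did 48.8%. The median was -0.11 over the 28 and -0.016 over all genes tested. In bulk samples fewer cells of a type and less RNA per cell cannot be told apart.

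**Figure D1:**
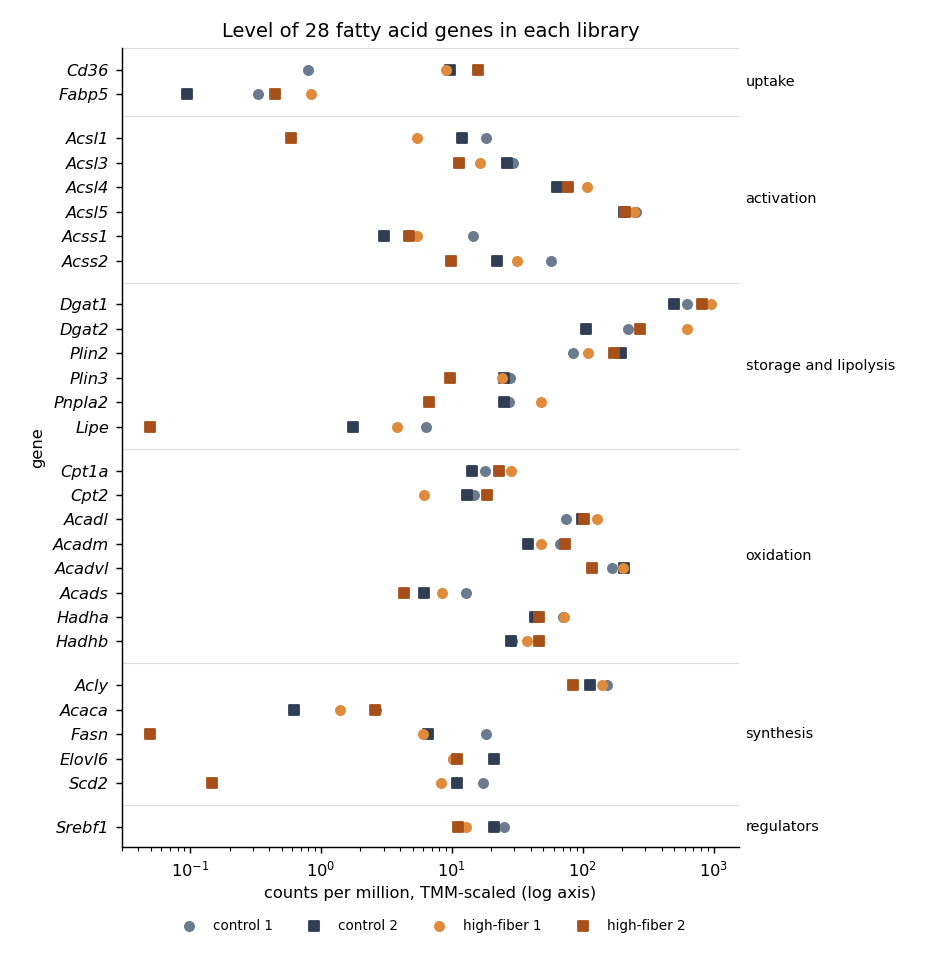
Level of the 28 tested genes in each library, in CPM on a log axis (x) by gene and class (y), with circles for mouse 1, squares for mouse 2, grey to navy for control and orange to brown for high-fiber. Dgat1 lies rightmost at 501 to 959 CPM, and fiber mouse 2 lies far left for Fasn (0.049 CPM), Lipe (0.049 CPM) and Scd2 (0.15 CPM).

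**Figure D2:**
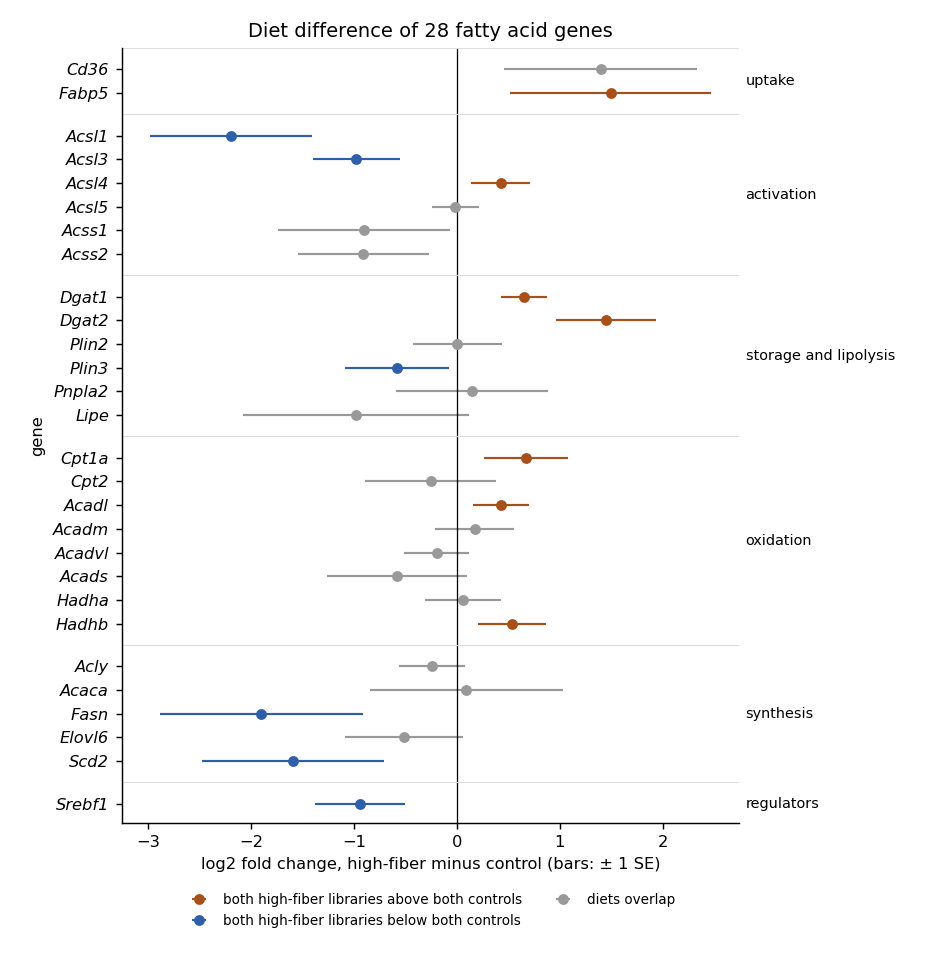
Diet difference of the same genes as the log2 fold change from edgeR, high-fiber minus control (x), with bars of 1 standard error, by gene and class (y). Colours mark genes whose fiber mice both lie above (7 genes) or both below (6 genes) the controls. None passed the adjusted test of edgeR.

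Triglyceride synthesis in these cells is represented by both acyltransferases, which join the third fatty acid to diacylglycerol and are unrelated in sequence. Dgat1 (NCBI gene 13350, GRCm38 chromosome 15, 76502012 to 76512021) was at 621 and 501 CPM in the control mice, against 959 and 808 CPM in the fiber mice. Both high-fiber values lay above both control values. The means of 561 ± 85.1 and 883 ± 107 CPM (SD, n = 2 each) gave a 1.57-fold difference, with a log2 fold change of 0.65 ± 0.22 (SE) and an edgeR adjusted p of 0.467. Dgat2 (NCBI gene 67800, chromosome 7, 99153663 to 99182713) was at 221 and 106 CPM in the controls against 623 and 272 CPM in the fiber mice. The diets did not overlap, but in each diet library 1 exceeded library 2, by 2.08-fold in the controls and 2.29-fold on the high-fiber diet. Its log2 fold change was 1.45 ± 0.48, a 2.73-fold difference, with an adjusted p of 0.459 by edgeR and 0.0672 by DESeq2. Without fiber mouse 1 it was 0.75 and without control mouse 1 it was 2.08, so the size of this difference rests on single libraries. Without fiber mouse 2 the values were 0.77 for Dgat1 and 1.92 for Dgat2.

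In RPKM, which is CPM divided by the transcript length in kilobases, Dgat1 averaged 382 over the 4 libraries and exceeded 98.4% of the 10940 tested genes that had a transcript length. Dgat2 averaged 135 RPKM, above 94.3% of them. In the controls alone its mean was 72.3 RPKM, below those of Acadvl (85.4) and Plin2 (74.4). Dgat1 made up 77.1% and 85.0% of the summed RPKM of the pair in the control mice and 64.8% and 78.0% in the fiber mice. These shares overlapped between the diets, and their order follows the library number within each diet.

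Perilipins coat lipid droplets. Plin2, the perilipin of most non-adipose cells, was at 84.3, 197, 109 and 172 CPM. In both diets library 2 was the higher, and the log2 fold change was 0.0042 ± 0.44. Plin3, which moves between cytosol and droplets, was at 27.6, 24.9, 24.3 and 9.62 CPM, a log2 difference of -0.58 ± 0.50 that shrank to -0.12 once fiber mouse 2 was left out. The lipases that open the stores spread widely between the fiber-fed mice. Pnpla2, the adipose triglyceride lipase, was at 27.1 and 24.97 CPM in the controls against 48.3 and 6.72 CPM in the fiber mice, so the fiber mice lay on either side of the controls. Lipe, the hormone-sensitive lipase, held 190, 37, 109 and 1 counts in the same order. The difference of -0.98 ± 1.10 came with overlapping diets and was -0.21 without fiber mouse 2. For Pnpla2 the difference was 0.15 ± 0.74, and 0.88 without that mouse.

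Of the 5 uptake genes only Cd36 and Fabp5 entered the test. The lipoprotein lipase gene Lpl and the VLDL receptor gene Vldlr had no count in any library, where a 0 allows 3 counts at most, or 0.0993 to 0.147 CPM. Fabp4, a fatty acid chaperone of adipocytes and macrophages, held 0, 12, 4 and 0 counts and did not enter the test. Its relative Fabp5 held 10, 2, 24 and 9 counts and entered at 0.095 to 0.83 CPM. Counts of this size leave its log2 fold change of 1.49 ± 0.98 poorly fixed (adjusted p = 0.739). Cd36, the fatty acid translocase, held 24 and 202 counts in the control mice and 258 and 324 in the fiber mice. In CPM these were 0.79, 9.62, 8.94 and 15.9, so the diets overlapped and control mouse 1 stood 12.1-fold below its partner. The log2 fold change of 1.40 ± 0.94 (adjusted p = 0.756) became 3.92 without control mouse 2 and 0.34 without control mouse 1. Macrophages also express Cd36, and the summed level of 9 macrophage markers was 146 and 293 CPM in the controls and 329 and 368 CPM in the fiber mice. Apoe alone was at 85.2, 154, 202 and 192 CPM. Lyz2 was at 22.3, 75.3, 72.3 and 106 CPM, and Cd68 at 0.99, 10.7, 5.27 and 8.83 CPM. C1qb was at 10.5, 14.3, 13.7 and 21.5 CPM, and C1qc at 12.7, 24.2, 18.0 and 26.9 CPM. C1qa, at 7.95, 9.34, 14.2 and 7.61 CPM, was lowest in fiber mouse 2. Of these 9 genes 6 had a count in each library, while the defining genes Adgre1, Csf1r and Mrc1 were at 0 in at least 1 library. Adgre1 held 105, 0, 9 and 113 counts, Csf1r 0, 100, 80 and 0, and Mrc1 74, 3, 0 and 0. The lowest library for Cd36, control mouse 1, was also the lowest for the macrophage sum. Of the defining genes, Adgre1 and Mrc1 were higher there than in control mouse 2, and Csf1r was lower. The part of such cells in the Cd36 result was not tested.

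Acsl5 was the most abundant of the long-chain synthetases per length, and Acsl1, Acsl3 and Acsl4 did not overlap between the diets. Over all genes tested, 18.5% did not overlap upward and 19.6% downward. Acsl5, a synthetase of mitochondria and endoplasmic reticulum, was at 254, 206, 246 and 209 CPM. The log2 fold change was -0.015 ± 0.23, and its sign turned with RLE scaling factors. Acsl4, which prefers arachidonic acid, was at 74.5 and 63.1 CPM in the controls against 108 and 76.5 CPM in the fiber mice (0.43 ± 0.29). Acsl3, the synthetase of growing droplets, was at 29.3 and 26.2 CPM in the controls against 16.5 and 11.2 CPM in the fiber mice. The gap between its diets was wider than the gap within either, with a log2 fold change of -0.98 ± 0.42 and an adjusted p of 0.590. Acsl1 (NCBI gene 14081, chromosome 8, 46471037 to 46536051), the main synthetase of oxidative and adipose tissue, was at 18.1 and 11.9 CPM in the controls against 5.37 and 0.59 CPM in the fiber mice. Both fiber mice were below both controls and differed 9.12-fold from each other. For Acsl1 the log2 fold change was -2.20 ± 0.79, a 4.58-fold lower level with an adjusted p of 0.498, and -1.51 without fiber mouse 2.

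Of the summed RPKM of the 4 long-chain synthetases, Acsl5 made up 69.0% to 73.8% in every library. Acsl4 made up 16.4% and 17.1% in the controls and 24.4% and 21.7% in the fiber mice. The share of Acsl4 was thus higher in both fiber mice, and those of the rarer Acsl3 and Acsl1 were lower. Acsl3 made up 8.64% and 9.45% in the controls and 4.97% and 4.27% in the fiber mice. Acsl1 made up 5.39% and 4.34% in the controls and 1.64% and 0.23% in the fiber mice. For Acsl1, Acsl3 and Acsl4 the shares of the 2 diets did not overlap, and no test was run on shares. For both acetate-activating enzymes the diets overlapped. Acss2, the nuclear and cytosolic acetyl-CoA synthetase, was at 57.3 and 22.1 CPM in the controls against 31.7 and 9.91 CPM in the fiber mice (-0.91 ± 0.64). That difference was -0.044 without control mouse 1, -0.37 without fiber mouse 2 and -2.02 without fiber mouse 1. Acss1, its mitochondrial relative, was at 14.6, 3.05, 5.37 and 4.66 CPM in the same order (-0.91 ± 0.84), and without control mouse 1 its difference was 0.73. Of the 6 activation genes 5 lay below 0 on the log2 fold change scale and their median was -0.91, but it was 0.052 without control mouse 1.

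**Figure D3:**
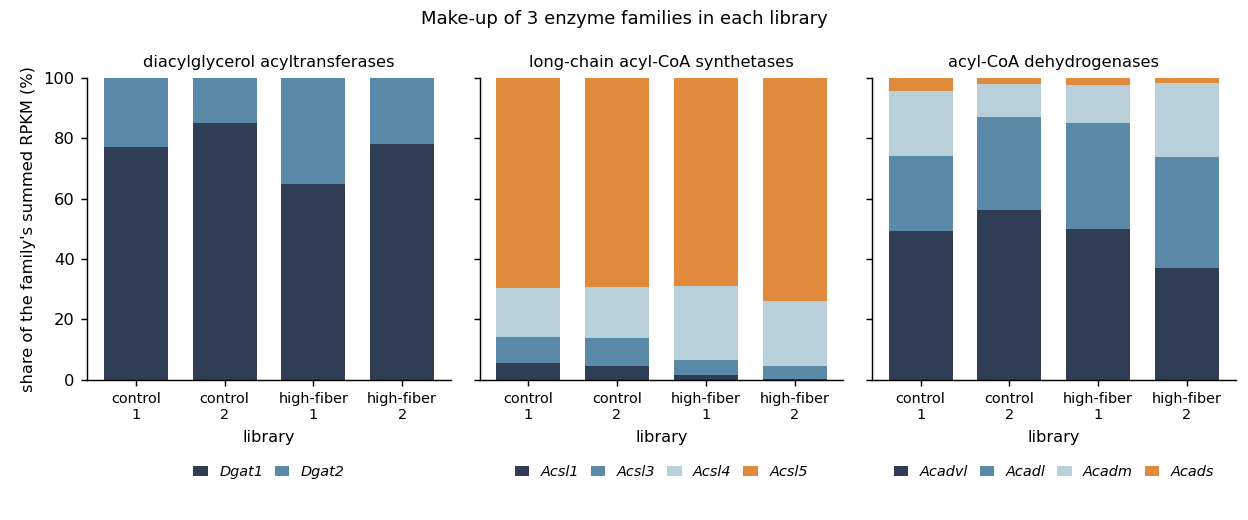
Share of each gene in the summed RPKM of its enzyme family (y, in percent) in each library (x), for the diacylglycerol acyltransferases, the long-chain acyl-CoA synthetases and the acyl-CoA dehydrogenases. Acsl5 fills 69.0% to 73.8% of its family in every library, and the Acsl1 and Acsl3 segments are thinner in both fiber mice.

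Of the 6 synthesis genes among the 34, Fasn and Scd2 were those whose diets did not overlap. Both were lower in the fiber mice, as were 19.6% of all genes tested by the same rule. Acly, which makes cytosolic acetyl-CoA from citrate, was at 27.9 RPKM on average, and at 154 and 114 CPM in the controls and 141 and 84.6 CPM in the fiber mice. Its diets overlapped (-0.24 ± 0.32). Acaca, the carboxylase that commits acetyl-CoA to synthesis, was at only 0.62 to 2.62 CPM (0.092 ± 0.94). Fasn (NCBI gene 14104, chromosome 11, 120805958 to 120825166), the fatty acid synthase, held 547 and 137 counts in the control mice and 173 and 1 counts in the fiber mice. In CPM these were 18.1, 6.53, 5.99 and 0.049, so fiber mouse 1 lay just under control mouse 2 while fiber mouse 2 lay 122-fold below its partner. Its log2 fold change was -1.90 ± 0.99 (adjusted p = 0.670), and -1.12 without fiber mouse 2. Scd2, a stearoyl-CoA desaturase, was at 17.2 and 10.9 CPM in the controls against 8.24 and 0.15 CPM in the fiber mice. For Scd2 the log2 fold change was -1.59 ± 0.89 (adjusted p = 0.693), and -0.80 without fiber mouse 2. Scd1 had 0 counts in all 4 libraries, and since the Scd genes are close copies, reads of one could have been counted for another. Elovl6, which lengthens palmitate, was at 10.1, 20.9, 10.1 and 10.9 CPM, so only control mouse 2 stood apart (-0.51 ± 0.57).

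Srebf1 (NCBI gene 20787, chromosome 11, 60199084 to 60224186) encodes SREBP-1, the activator of the lipogenic genes. It was at 24.8 and 20.9 CPM in the controls against 12.7 and 11.0 CPM in the fiber mice. The libraries of each diet lay close together and the diets apart, with means of 22.8 ± 2.72 and 11.9 ± 1.21 CPM. Its log2 fold change of -0.94 ± 0.44 (adjusted p = 0.633) stayed between -1.05 and -0.80 when any 1 library was left out. Without fiber mouse 2 it was -0.86. The coactivator gene Ppargc1a and the pyruvate dehydrogenase kinase gene Pdk4, both induced by fasting in liver and muscle, had 0 counts in all 4 libraries.

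Promoter sequence is shown for Fasn, Acsl1 and Acsl3, the 3 genes lower in both fiber mice that belong to synthesis or activation and have a window in the RefSeq table of GRCm38.p6. A window was found for 27 of the 34 genes and was missing for 7, among them Dgat1, Dgat2, Scd1 and Scd2. Each sequence is the 250 bases before an annotated start, 5′ to 3′ on the gene's strand, with motif matches in capitals. For Acsl1 the window is that of its downstream start at 46490966, since it held a match to the sterol regulatory element. The window of its upstream start at 46471037 held no such match and is not printed. The printed Acsl1 window lies inside the span that RefSeq gives for Acsl1. The Fasn window likewise lies inside the span of Fasn, which reaches upstream of the Fasn start used here.
Fasn, chr11:120824548-120824797, minus strand: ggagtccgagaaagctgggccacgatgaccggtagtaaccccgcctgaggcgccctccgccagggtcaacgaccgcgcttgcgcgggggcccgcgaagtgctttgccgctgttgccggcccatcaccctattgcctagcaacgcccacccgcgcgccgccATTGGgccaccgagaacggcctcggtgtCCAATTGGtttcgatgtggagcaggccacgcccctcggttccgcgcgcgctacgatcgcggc
Acsl1, chr8:46490716-46490965, plus strand: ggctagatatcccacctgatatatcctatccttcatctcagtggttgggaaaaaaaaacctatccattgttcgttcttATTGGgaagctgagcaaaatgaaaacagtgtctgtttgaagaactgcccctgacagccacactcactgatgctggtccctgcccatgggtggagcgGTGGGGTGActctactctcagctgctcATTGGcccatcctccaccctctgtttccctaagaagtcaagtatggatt
Acsl3, chr1:78657575-78657824, plus strand: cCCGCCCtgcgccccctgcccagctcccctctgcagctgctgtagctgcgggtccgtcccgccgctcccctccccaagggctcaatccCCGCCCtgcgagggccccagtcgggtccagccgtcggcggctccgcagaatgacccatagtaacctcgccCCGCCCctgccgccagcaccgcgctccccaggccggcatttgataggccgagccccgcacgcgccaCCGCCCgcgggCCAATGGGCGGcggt
Altogether 5 motifs were searched on both strands of all 32851 windows of this length and of the 32 windows of these genes. The sterol regulatory element, as TCACNCCAC, was in 1.05% of all windows and in 1 of the 32, the Acsl1 window printed above, as GTGGGGTGA from 76 to 68 bases before the start. The CCAAT box, as CCAAT, was in 33.8% of all windows and in 13 of the 32, among them all 3 printed ones, and 2 of its matches in Fasn overlap each other. It was absent from the Acsl1 window that is not printed. The GC box, as GGGCGG, was in 32.7% of all windows and in 19 of the 32, with 5 matches in Acsl3 and 0 in the Fasn window. The E-box, as CACGTG, was in 6.02% of all windows and in 1 of the 32, a Lipe window. The direct repeat of PPAR response elements, AGGTCA repeated after 1 base, was in 0.0335% of all windows and in 0 of the 32. A match describes the letters only, and windows without one lack only these letters.

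Beta-oxidation genes had counts in every library, and Cpt1a, Acadl and Hadhb were higher in each fiber mouse than in either control. The same held for 18.5% of all genes tested. Of the 8 genes 5 lay above 0 and 3 below on the log2 fold change scale, their median was 0.12 and they ran from -0.58 to 0.67. Leaving out control mouse 2 turned this median to -0.10. Cpt1a, the regulated gate of the carnitine shuttle, was at 17.9 and 14.2 CPM in the controls against 28.4 and 23.0 CPM in the fiber mice. The diets did not overlap, and its log2 fold change of 0.67 ± 0.41 (adjusted p = 0.729) stayed between 0.52 and 0.86 when any 1 library was left out. Cpt2, its partner on the inner membrane, was at 14.7 and 13.0 CPM in the controls against 6.10 and 18.6 CPM in the fiber mice, on either side of the controls.

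The acyl-CoA dehydrogenases, which open each round of oxidation, are ordered by the chain length they accept. Acadvl, for very long chains, was at 166, 205, 204 and 117 CPM (-0.20 ± 0.31, and 0.14 without fiber mouse 2). Acadl, for long chains, was at 74.2 and 98.8 CPM in the controls against 128 and 102 CPM in the fiber mice, with diets that did not overlap (0.42 ± 0.27). Acadm, for medium chains, was at 67.4, 38.0, 48.1 and 73.2 CPM in the same order (0.17 ± 0.38). Acads, for short chains, was at 12.9, 6.10, 8.35 and 4.32 CPM (-0.58 ± 0.68). Per length, Acadvl made up 49.3% and 56.3% of the family in the controls and 49.8% and 37.1% in the fiber mice. Acadl made up 25.01% and 30.7% in the controls and 35.4% and 36.7% in the fiber mice, so its shares did not overlap between the diets. Long and very long chain enzymes held most of the family's transcripts in all 4 libraries.

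Hadha and Hadhb encode the alpha and beta subunits of the mitochondrial trifunctional protein, which runs the later steps of long-chain oxidation. They lie head to head on chromosome 5, with RefSeq starts at 30154980 and 30155253 and 272 bases between them. The 85 bases between their annotated first exons in GENCODE M21 are shown because the genes diverge from this stretch, on the plus strand with the 2 GC boxes (GGGCGG) in capitals.
Hadha-Hadhb, chr5:30155163-30155247, plus strand: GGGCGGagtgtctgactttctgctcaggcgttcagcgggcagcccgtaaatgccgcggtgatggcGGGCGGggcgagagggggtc
Hadha was at 70.5, 43.1, 72.0 and 46.5 CPM, following the library number in both diets (0.060 ± 0.37). Hadhb was at 29.0 and 28.5 CPM in the controls against 37.3 and 46.4 CPM in the fiber mice, where both values lay above both controls (0.53 ± 0.33, adjusted p = 0.730). Per length the 2 subunits had means of 14.4 and 17.2 RPKM over the 4 libraries. Hadha was at 17.5, 10.7, 17.9 and 11.6 RPKM and Hadhb at 14.1, 13.9, 18.2 and 22.7 RPKM. Hadha was the higher only in control mouse 1.

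Ordered by mean RPKM, Dgat1 (382) and Dgat2 (135) were followed by Acadvl (79.7), Plin2 (74.4), Acsl5 (53.9) and Acadl (52.6). The lowest 4 of the 28 were Lipe (0.82), Fasn (0.76), Fabp5 (0.43) and Acaca (0.20). The median over the 10940 tested genes with a length was 7.89 RPKM, with 13 of the 28 above it and 15 at or below it. Of the 27 neighbouring pairs in this order only Acadl and Acly had every library of the one above every library of the other. Within each library the order held for 5 pairs, among them Dgat1 over Dgat2, and for the other pairs it turned in at least 1 library.

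Mice of the same diet differed widely for some genes. In the high-fiber diet Acsl1, Fasn, Lipe, Pnpla2 and Scd2 were at least 4-fold lower in library 2 than in library 1. They were 5 of the 28 genes (17.9%), where 9.78% of all tested genes differed that way. Of the 28, 0 differed as much in the opposite direction, where 4.42% of all genes did. On the control diet Acaca and Acss1 were at least 4-fold lower in library 2 and Cd36 in library 1. Depth differed too, since library 2 was the shallower in both diets, and its part in these gaps was not tested.

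A further 121 genes of the same pathways were read from a list, and 80 of them entered the test. None of these 80 passed edgeR, DESeq2 or limma-voom, 42 had positive and 38 negative log2 fold changes, and the median was 0.076. At an unadjusted p under 0.05, 3 were higher (Abhd5, Acadsb and Me1) and 1 was lower (Mcat), against 4.7% and 4.1% of all genes. Me1 entered the test only through its counts in the fiber mice, so its place among the higher genes carries no weight. Of 29 further storage genes 15 were tested. Hilpda, the hypoxia-inducible inhibitor of adipose triglyceride lipase, was at 2892 and 2283 CPM in the controls against 1826 and 2210 CPM in the fiber mice (-0.36 ± 0.24), with diets that did not overlap and a mean of 2345 RPKM, above Dgat1 per length. Soat1, which esterifies cholesterol for droplets, was at 209, 129, 198 and 190 CPM. Of 31 further oxidation genes 27 were tested, and those named by level were the electron transfer flavoprotein subunit Etfb (0.24 ± 0.27) and the thiolase Acat1 (0.11 ± 0.22). Their diets overlapped.

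Among the further activation genes, Acot7, an acyl-CoA thioesterase that reverses activation, was at 294 and 364 CPM in the controls against 432 and 502 CPM in the fiber mice (0.51 ± 0.22, adjusted p = 0.599). Dbi, the acyl-CoA binding protein, was at 70.0 and 87.6 CPM in the controls against 99.2 and 150 CPM in the fiber mice (0.66 ± 0.30, adjusted p = 0.613, and 0.33 without fiber mouse 2). For both genes the diets did not overlap. In synthesis the elongase Elovl5 was at 1373, 1126, 1134 and 972 CPM (-0.25 ± 0.22), and the dehydratase Hacd3 at 433, 295, 491 and 526 CPM (0.48 ± 0.25). Among regulators Pparg, a lipid-activated nuclear receptor that ILC2s express, was at 134, 76.0, 78.4 and 76.6 CPM, so control mouse 1 alone stood apart (-0.45 ± 0.33). Nr1h2, which encodes the liver X receptor beta, was at 117, 132, 169 and 83.8 CPM, with a log2 fold change of 0.037 ± 0.35 whose sign turned without scaling factors. In uptake the genes named by level were Lmf1, a lipase maturation factor (-0.024 ± 0.47, positive with the filter of 5 CPM in 2 libraries), and the carrier Slc27a1 (-0.62 ± 0.71).

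Abhd5, Acadsb, Me1 and Mcat fell outside the naming rule and were chosen after their values were seen. Me1, the malic enzyme that supplies NADPH for fatty acid synthesis, had 0 counts in both control libraries and 63 and 49 counts in the fiber mice. It therefore entered the test only through the fiber mice. Set against 3 counts over the control group, its pooled level in the fiber mice was at least 38.8-fold higher. This bound covers counting error in the controls only, not the spread between mice. The unadjusted edgeR p was 0.0106, and the adjusted p was 0.447 by edgeR and 0.0593 by DESeq2. The fitted log2 fold change of Me1 and this bound both lie above the median of the 80 genes. The choice between them therefore cannot move that median, which was 0.076. Abhd5, the protein that activates adipose triglyceride lipase, was at 11.6 and 15.9 CPM in the controls against 29.9 and 26.6 CPM in the fiber mice, with diets that did not overlap (1.07 ± 0.42, adjusted p = 0.533). Acadsb, a dehydrogenase of short branched chains, had a log2 fold change of 0.62 ± 0.25, and Mcat, of mitochondrial fatty acid synthesis, had -1.42 ± 0.59.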

How the data were processed

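The authors deposited 1 table of raw read counts, whole numbers by NCBI gene identifier, and all 4 columns were matched to samples (0 unmatched). The submitters' processing notes list CASAVA 1.8.2, STAR 2.3.0 and mm10, with no role stated. Per the labels' protocols, the sorted cells went through a SMARTer kit for ultra-low input. How reads were counted, and with what strand setting, is not given in the sources used here. Overlapping genes and close copies may therefore share reads. Totals were 20253987 to 30406730 counts per library.

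Identifiers were matched to RefSeq symbols of GRCm38.p6, the assembly of mm10 (25275 of 27179). In R 4.3.3 with edgeR 4.0.16, filterByExpr kept 11841 of 15425 genes with a count, followed by TMM scaling, estimateDisp, glmQLFit (legacy=FALSE, robust off), glmQLFTest and Benjamini-Hochberg adjustment over all genes at 0.05. The tests were run on 2 mice against 2, with 2 residual degrees of freedom. The edgeR fit was also tested on simulated data, drawn from the means and spread of these same libraries. That run cannot show how the test behaves where libraries depart from this model. RPKM used the longest RefSeq-matched GENCODE M21 transcript, since the RefSeq table gave no exon lengths. Each standard error is the log2 fold change over the root of F. A count of 0 allows up to 3 counts, counting error only. Every one of the 34 genes is named. Other pathway genes are named when past the threshold or among the 2 of highest mean CPM in a class. Members and lists were chosen with earlier results of these data known. Alternatives were RLE and no scaling, no filter, a filter of 5 CPM in 2 libraries, limma-voom (limma 3.58.1), DESeq2 1.42.0, the legacy=TRUE fit, a replicate block, and each library left out.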

Additional observations from a re-analysis of the deposited data

How the results depend on the processing

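None of the 28 tested members and none of the 80 other pathway genes was called in either direction under any of the 12 alternatives, and the smallest adjusted p of a member was 0.0672 (Dgat2, DESeq2). Over all genes, the 4 higher calls became 8 with the filter of 5 CPM, 156 with DESeq2, 0 without a filter, 0 with limma-voom, 0 with legacy=TRUE, 0 with the replicate block and 0 to 1 when a library was left out. The 0 lower calls became 1 with the filter of 5 CPM and 78 with DESeq2. Signs held under every alternative run for 15 of the 28 members, 8 positive and 7 negative, and for 6 of the 12 other genes named by rule. Signs that turned with the scaling or tool were those of 5 genes. Acsl5 was 0.0013 with RLE and 0.00092 with DESeq2. Plin2 was -0.051 without scaling factors and -0.00087 with legacy=TRUE. Pnpla2 was -0.36 with limma-voom and -0.14 with the replicate block. Lmf1 was 0.0042 with the filter of 5 CPM, 0.046 with DESeq2 and 0.025 with legacy=TRUE. Nr1h2 was -0.0062 without scaling factors, -0.017 with limma-voom and -0.036 with the replicate block. With a library left out, and the lone library of its diet taken to vary like the others, log2 fold changes that turned ranged as follows. Ranges were Acaca from -0.46 to 1.61, Acadm from -0.16 to 0.67, Acads from -1.17 to 0.10 and Acadvl from -0.64 to 0.14. Ranges were Acly from -0.64 to 0.066, Acsl5 from -0.16 to 0.15, Acss1 from -1.53 to 0.73 and Cpt2 from -1.20 to 0.44. Ranges were Elovl6 from -0.99 to 0.053, Etfb from -0.026 to 0.57, Hadha from -0.28 to 0.47 and Lipe from -6.31 to 0.31. Ranges were Lmf1 from -0.58 to 0.51, Nr1h2 from -0.54 to 0.44, Plin2 from -0.49 to 0.73 and Pnpla2 from -1.93 to 0.88. Ranges were Pparg from -0.79 to 0.030, Slc27a1 from -1.25 to 0.032 and Soat1 from -0.11 to 0.60. Class medians that turned ranged from -1.24 to 0.052 for activation, from -0.55 to 0.32 for storage and lipolysis and from -0.10 to 0.36 for oxidation. The cause was not tested. Fabp5 could not be fitted without high-fiber library 1 or with the filter of 5 CPM, nor Lipe and Acaca with that filter. The replicate numbers of the labels pair nothing known: over 11841 genes the difference of libraries 1 and 2 correlated at 0.0408 between the diets, over the 28 members at 0.375, and the block changed no other call.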
